A study of Homo sapiens with 20 samples.

Results

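The genes described here are 9 genes for proteins that bind actin filaments or belong to a motor that moves along them: FLNA, CTTN, CNN2, CNN3, ACTN1, ACTN4, MTSS2, TPM1 and MYL6. They were taken as every skipped exon event whose gene symbol is 1 of the 9 in each of 3 junction read tables, and as the 9 rows with these names in a table of FUBP1 RNA immunoprecipitation (RIP). The members made up 36 of 19792 events in the table for FUBP1 depletion, 47 of 32990 in the table for U3 depletion, 23 of 7065 in the table for fibrillarin depletion, and 9 of 28278 genes in the RIP table. A skipped exon event is a cassette exon between a given pair of neighbouring exons. All 9 genes had an event in the first 2 tables, and 7 of them, all except CNN3 and ACTN4, had one in the third. The list was chosen by the measured inclusion changes of FLNA, CTTN and CNN2 after FUBP1 depletion and of an MTSS2 exon under U3 depletion, which were known beforehand. The values of these comparisons are therefore given as a description, with no p-value.

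All libraries came from HepG2, an established human liver cancer cell line. The question was how exon use and binding by FUBP1 respond to loss of FUBP1 itself and of parts of the machinery for RNA 2′-O-methylation. Cells received siCtrl2 or siFUBP1, an siRNA against the splicing factor FUBP1, and were harvested after 48 h (3 libraries each). Others received an antisense oligonucleotide (ASO) against GFP as the control or against the small nucleolar RNA U3 and were harvested after 72 h (3 libraries each). Both sets were polyadenylated RNA. The third set received siCtrl or siFBL, which targets the RNA methyltransferase fibrillarin (FBL), for 48 h, and was sequenced as lysate input and as RIP with an antibody to FUBP1 (2 libraries of each kind). Each depletion was made with 1 siRNA or 1 ASO and had its own control. The study's methods call the replicates biological, and neither they nor the labels say whether cultures were grown and transfected separately.

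Actin filaments give a cell its shape and carry the force for adhesion and migration. Filamin A (FLNA) and the alpha-actinins (ACTN1, ACTN4) crosslink filaments, cortactin (CTTN) binds branched filaments at the cell edge, the calponins (CNN2, CNN3) and tropomyosin 1 (TPM1) bind along filaments, MYL6 is a light chain of myosin II, and MTSS2 binds actin and curved membrane. Several of these genes are known for cassette or mutually exclusive exons that differ between muscle, brain and epithelial cells. FUBP1 is known to bind uridine-rich RNA near 3′ splice sites.

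The exons on which the results turn are shown with the last 50 intron bases before them in lower case, the exon in capitals and the first 12 intron bases after it in lower case, on the strand of the transcript (5′ to 3′). The sequences are those of build hg38. The MYL6 exon is shown only as far as its stop codon, which is its last triplet in capitals.
FLNA, chrX:154357251-154357274, minus strand: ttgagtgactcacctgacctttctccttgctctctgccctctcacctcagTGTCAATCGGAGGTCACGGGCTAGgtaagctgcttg
CTTN, chr11:70421470-70421580, plus strand: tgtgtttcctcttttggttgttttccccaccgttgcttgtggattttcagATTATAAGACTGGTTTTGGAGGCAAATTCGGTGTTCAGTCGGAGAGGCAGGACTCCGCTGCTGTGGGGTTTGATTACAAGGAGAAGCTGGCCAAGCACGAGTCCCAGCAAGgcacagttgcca
CNN2, chr19:1036130-1036246, plus strand: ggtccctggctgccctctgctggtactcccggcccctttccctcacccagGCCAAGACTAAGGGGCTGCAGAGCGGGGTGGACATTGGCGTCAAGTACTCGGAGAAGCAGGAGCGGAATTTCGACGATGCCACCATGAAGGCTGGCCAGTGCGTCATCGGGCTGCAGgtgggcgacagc
MYL6, chr12:56160626-56160670, plus strand: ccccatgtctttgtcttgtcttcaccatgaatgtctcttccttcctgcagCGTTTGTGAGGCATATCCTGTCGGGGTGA
MTSS2, chr16:70679315-70679323, minus strand: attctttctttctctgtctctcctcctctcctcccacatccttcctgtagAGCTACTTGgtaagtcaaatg

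In GENCODE release 44 the FLNA exon is exon 30 of the canonical transcript, is wholly coding and adds 8 codons within the stretch of immunoglobulin-like repeats. The CTTN exon is exon 11 of its canonical transcript and adds 37 codons, which make up 1 of the tandem repeats through which cortactin binds filaments. The neighbouring CTTN exons 9 and 10 have the same length of 111 bases. The CNN2 exon is exon 5 and adds 39 codons. A longer form of it, from 1036067 to the same end and 180 bases long, is in 1 annotated transcript. The MTSS2 exon is exon 7 and is a microexon of 9 bases, or 3 codons. The MYL6 exon of 45 bases is exon 6 and is partly coding: it brings in an early stop codon, so that the forms with and without it differ at the end of the protein.

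Bases next to these exons differed from gene to gene. Thymine made up 50% of the 50 bases before CTTN exon 11, which put it at the 87.0 percentile of the 14722 distinct exons tested in the siFUBP1 table. The share was 44% before the MTSS2 microexon, 40% before MYL6 exon 6, 34% before FLNA exon 30 and 24% before CNN2 exon 5, against a median of 38% over those tested in either polyadenylated RNA table. The intron after CTTN exon 11 starts with GC in place of the usual GT, as printed above. Such a start, after an exon that follows AG, was found at 1.16% of the exons tested in that table, and 98.7% had AG and GT. Among the members only MTSS2 exon 14, of 166 bases, shared the GC start. The FLNA exon of 24 bases was at the 0.615 percentile of exon length in that table, with an upstream intron of 159 bases. Of 31 distinct member exons tested in the siFUBP1 table, 20 had a length divisible by 3, and the share over all exons there was 45.4%.

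The tables and libraries were examined before the members. Junction reads per library ran from 2693397 to 4474350 in the siFUBP1 table, from 11249641 to 13321799 in the U3 table and from 910779 to 1142189 in the input table, so the third comparison had the least precision. Counted per 1000000 junction reads of the table (JPM from here on), reads at FUBP1 itself went from between 45.2 and 56.1 in siCtrl2 to between 4.08 and 10.1 in siFUBP1. Under U3 ASO reads at FUBP1 were also lower, at 22.8 to 26.6 JPM against 32.5 to 37.1 in GFP ASO, or 72.4% of the control mean. FBL had no event in the tables, and U3 itself was not measured in them. All 6 hepatocyte genes examined (ALB, AFP, APOA1, TTR, SERPINA1, FGB) lay at the 92.0 percentile or higher of mean normalized count in the siCtrl part of the RIP table. The leukocyte, endothelial and fibroblast genes PTPRC, PECAM1 and COL1A1 lay at the 43.9, 59.2 and 55.7 percentiles. Their mean normalized counts were 8.01, 64.8 and 33.2. No pair of libraries of 1 group was as close as sampling noise allows.

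After FUBP1 depletion, FLNA exon 30 and CTTN exon 11 were skipped more often and CNN2 exon 5 less often. A call was an adjusted p under 0.1 in a quasi-binomial test of inclusion against skipping reads over all 16213 events tested, and 4 of the 34 member events tested were called, 2 lower and 2 higher, against a background of 0.154%. The members were picked for these calls, so that count is fixed by the choice. With limma on the log2 odds of inclusion in place of this test, 0 of the 34 were called. The groups did not overlap at 5 of the 34 member events, the 4 called ones among them, against 5.32% of all events tested.

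The inclusion level is the length-scaled share of the form with the exon, from 0 to 1. For FLNA exon 30 it was 0.691, 0.670 and 0.766 in the siCtrl2 libraries and 0.321, 0.358 and 0.352 in the siFUBP1 libraries. All siFUBP1 libraries lay far below all controls. The mean went from 0.709 ± 0.050 to 0.344 ± 0.020 (SD, n = 3), a change of -0.37. The values rested on 520.8 junction reads per library.

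For CTTN exon 11 the level was 0.974, 0.830 and 0.885 in siCtrl2 and 0.553, 0.523 and 0.573 in siFUBP1. The mean went from 0.896 ± 0.073 to 0.549 ± 0.025 (SD, n = 3), a change of -0.35, again with no overlap of the groups. The same exon was also counted against direct joining of exon 9 to exon 12, which leaves out exon 10 as well. In that event the level was 0.961 ± 0.068 in siCtrl2 and 1.00 in all siFUBP1 libraries, so the skipping reads that were more frequent after siFUBP1 were those that joined exon 10 to exon 12. CTTN exons 9 and 10 had means from 0.998 to 1.00 in both groups when counted in their most-read event.

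CNN2 exon 5 moved the other way. Its level was 0.938, 0.858 and 0.810 in siCtrl2 and 0.998, 0.988 and 0.985 in siFUBP1, which took the mean from 0.869 ± 0.065 to 0.990 ± 0.007 (SD, n = 3), a change of 0.12. The longer form of the exon went from 0.791 ± 0.104 to 0.982 ± 0.013 (SD, n = 3). Both events share their skipping reads, which were 15, 82 and 68 in siCtrl2 and 1, 5 and 6 in siFUBP1, so they are not separate observations. The siCtrl2 mean also lay below the level of the same exon in the other control groups, 0.977 ± 0.036 in GFP ASO (SD, n = 3) and 0.949 in both siCtrl input libraries.

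MYL6 exon 6 was rarely used, at 0.054, 0.161 and 0.049 in siCtrl2 and 0.012, 0.043 and 0 in siFUBP1. The groups did not overlap, but the event was not called, and 2 of the controls lay close to the highest siFUBP1 library. The inclusion reads were 14, 59 and 15 in the controls and 3, 10 and 0 after depletion.

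**Figure D1:**
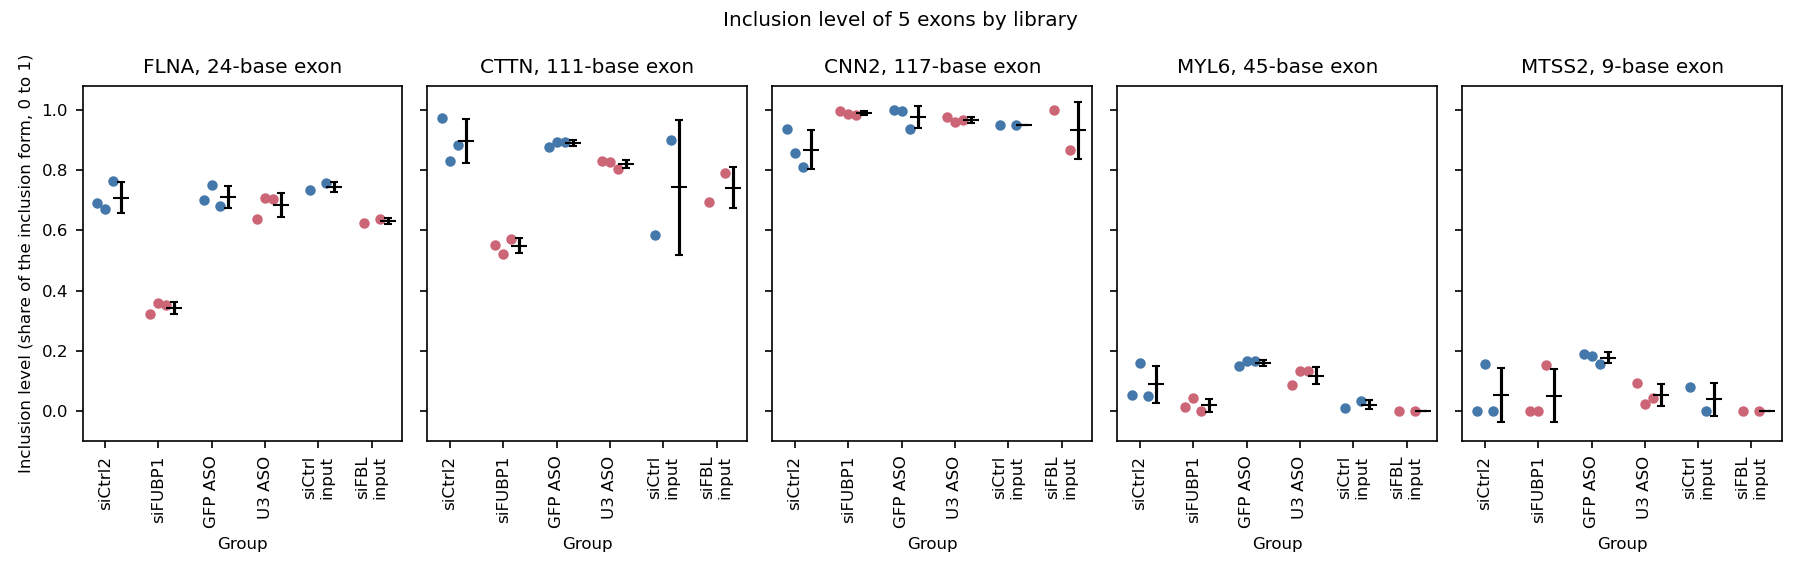
Inclusion level (0 to 1) of the FLNA, CTTN, CNN2, MYL6 and MTSS2 exons in every library of the 6 groups, with controls in blue, depletions in red and bars for the mean and SD. The siFUBP1 libraries sit between 0.321 and 0.358 for FLNA and between 0.523 and 0.573 for CTTN, below every other library of those panels. For CTTN 1 siCtrl input library is close to them, at 0.584. MTSS2 is split between the ASO groups.

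Most other member exons were included in nearly all transcripts of both groups. At 23 of the 34 tested member events the siCtrl2 mean was 0.98 or more, and the largest change among these was 0.0201 in size. The FLNA exon with the most reads, exon 36 of 174 bases, had 0.996 ± 0.008 and 0.982 ± 0.017 (SD, n = 3). ACTN1 exon 2 stayed at 1.00 and 0.999, ACTN4 exon 11 at 1.00 and 0.995, CNN3 exon 4 at 0.999 and 0.998, TPM1 exon 4 at 1.00 and 0.998, and MYL6 exon 3 at 0.982 and 0.986. MTSS2 exon 9, of 108 bases, was the MTSS2 exon with the largest change, from 0.944 ± 0.014 to 0.972 ± 0.020 (SD, n = 3), with overlap between the groups. The median change over the 34 events was 0.00018, and over all events tested -0.0014. The other 2 events, both at the end of TPM1, had under 2 junction reads per library and were not tested.

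Inclusion reads and skipping reads in JPM show how the reads of each form changed, and they follow the level of the gene as well as exon use. At FLNA exon 30 the inclusion reads were 92.5, 84.9 and 73.6 JPM in siCtrl2 and 65.7, 83.9 and 84.7 in siFUBP1, with overlap. The skipping reads were 35.6, 36.0 and 19.4 against 119.9, 129.5 and 134.4, a ratio of means of 4.22. The FLNA groups were thus apart in JPM in the form without the exon and not in the form with it. Reads at FLNA exon 36 went from 111.4 ± 13.1 to 224.8 ± 30.0 JPM (SD, n = 3). Level inclusion reads in JPM at exon 30 therefore do not mean unchanged inclusion per FLNA transcript. At CTTN exon 11 the skipping reads were 1.73, 10.1 and 7.23 JPM in siCtrl2 and 39.6, 35.5 and 25.2 in siFUBP1, a ratio of 5.28, and inclusion reads went to 0.714 of the control mean. At CNN2 exon 5 the inclusion reads were 169.3 ± 29.2 and 248.0 ± 13.6 JPM (SD, n = 3), while skipping reads went from 15.3 ± 8.98 to 1.36 ± 0.991.

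**Figure D2:**
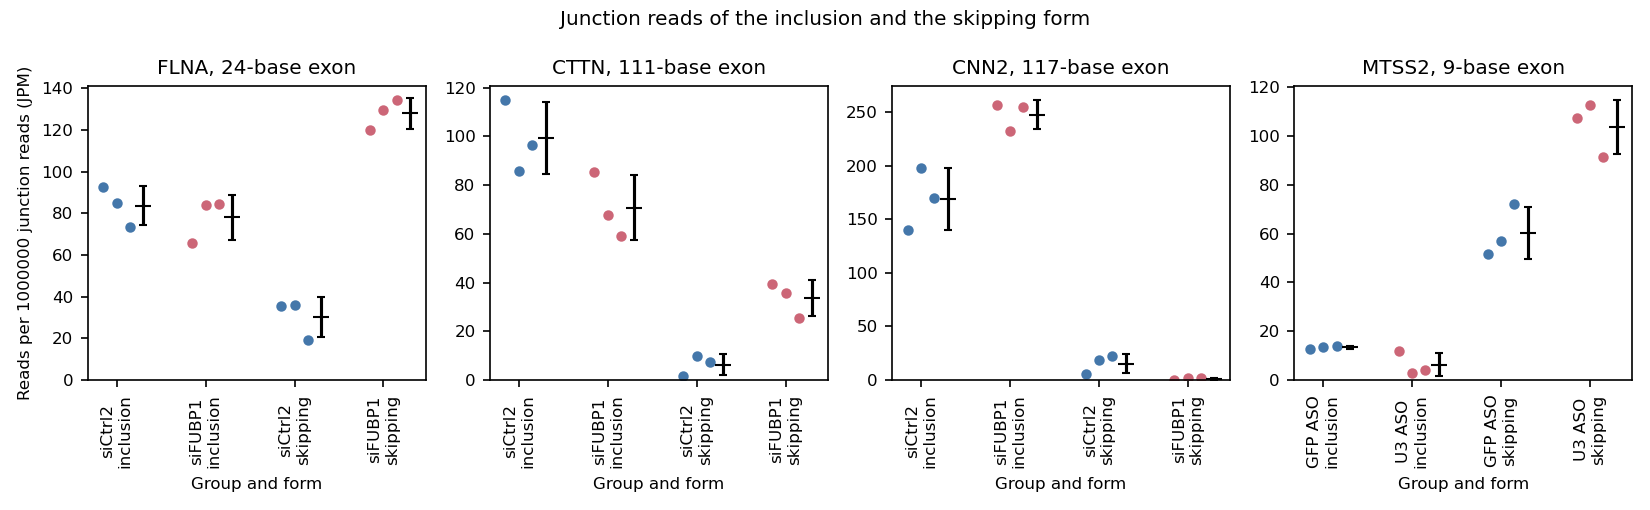
Reads of the inclusion and the skipping form in JPM, by library, with mean and SD, for 3 exons after siFUBP1 and for the MTSS2 microexon under U3 ASO. FLNA inclusion reads overlap between groups while its skipping reads go from a mean of 30.3 to 127.9, and MTSS2 skipping reads go from 60.3 to 103.9.

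Under U3 depletion the MTSS2 microexon was the called member event. Calls were made at 1 of 47 member events tested, against a background of 0.189%, and the groups did not overlap at 5 of the 47, against 6.28% of all 30110 events tested. The MTSS2 microexon was among the exons the list was chosen by, so the count of calls is fixed by the choice. With limma on the log2 odds 0 of the 47 were called. All 5 events without overlap were lower under U3 ASO. They were the microexon, CTTN exon 11, MYL6 exon 6 and the less-read events of MTSS2 exons 11 and 12. The events of MTSS2 exons 11 and 12 share their skipping reads and are not separate observations. These reads were 0 in all GFP ASO libraries and 1, 5 and 9 in U3 ASO.

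The level of the MTSS2 microexon was 0.191, 0.183 and 0.156 in GFP ASO and 0.094, 0.024 and 0.042 in U3 ASO. The mean went from 0.176 ± 0.018 to 0.053 ± 0.037 (SD, n = 3), a change of -0.12. In reads, inclusion was 12.9, 13.6 and 14.1 JPM in GFP ASO and 11.9, 2.91 and 4.20 in U3 ASO, so the first U3 ASO library lay close to the controls and the others well below. Skipping reads were 51.6, 57.2 and 72.1 against 107.6, 112.6 and 91.5. The 9-base exon was detected unevenly elsewhere. Its inclusion reads were 0, 61 and 0 in siCtrl2, 0, 0 and 34 in siFUBP1, 42 and 0 in siCtrl input and 0 in both siFBL input libraries, although skipping reads were present in all of these.

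CTTN exon 11 was at 0.878, 0.894 and 0.895 in GFP ASO and 0.831, 0.827 and 0.804 in U3 ASO. The change of -0.07 had the direction of that after siFUBP1, was smaller, and was not called. FUBP1 reads were lower in both of these depletions, and their part in this result was not tested. The skipping reads of the CTTN exon were 4.36, 4.17 and 4.02 JPM against 12.7, 13.2 and 13.1, and its inclusion reads also went up, to a ratio of 1.77. MYL6 exon 6 was at 0.149, 0.164 and 0.165 against 0.086, 0.132 and 0.134. FLNA exon 30 was at 0.702, 0.752 and 0.680 in GFP ASO and 0.638, 0.709 and 0.704 in U3 ASO, with overlap and a change of -0.03. CNN2 exon 5 was at 0.977 ± 0.036 and 0.968 ± 0.009 (SD, n = 3).

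The deeper U3 table also listed exons of paired use. TPM1 has 2 such exons of 126 bases. The one starting at 63043706, counted before its partner, was at 0.008 ± 0.007 in GFP ASO and 0.011 ± 0.013 in U3 ASO. The partner, exon 2 of the canonical transcript, was at 0.988 ± 0.021 and 0.998 ± 0.003 (SD, n = 3) against leaving out both exons. Against joining of the exon at 63043706 to the exon after the pair, exon 2 was at 0.891 ± 0.068 and 0.918 ± 0.029. Of the 2 TPM1 exons of 76 bases, the one starting at 63061198 was at 0.982 ± 0.009 and 0.992 ± 0.006. Canonical exon 6, of the same length and next in order, was at 0.006 ± 0.007 and 0.014 ± 0.009 when counted between that exon and the one after it. ACTN4 canonical exon 19, of 81 bases, was at 0.995 and 0.987, and the 66-base exon that follows it at 0.007 and 0.003. The 66-base exon 20 of the canonical ACTN1 transcript had a level of 0 in GFP ASO and 0.001 in U3 ASO. HepG2 cells thus mainly used 1 exon of each TPM1 pair in both groups.

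After fibrillarin depletion no member event passed the test. Of 5218 events tested over all genes 0 were called (0%). The unadjusted p of 77 was under 0.05, a smaller share than that threshold would give with no differences. For the 23 member events, limma on the log2 odds called 0 too, and the unadjusted p was under 0.05 for 0 of them. With 2 libraries a group and the lowest depth of the series, differences at the members were not detectable, which does not show that they are absent. The groups did not overlap at 5 of 23 member events, against 15.8% of all events tested. They were FLNA exons 30 and 36, MYL6 exon 6 and CTTN exon 17, all lower, and MTSS2 exon 9, which was higher. MYL6 exon 6 had only 1 and 2 inclusion reads in the controls and 0 in both siFBL input libraries.

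FLNA exon 30 was at 0.734 and 0.757 in siCtrl input and 0.625 and 0.639 in siFBL input. Both siFBL libraries lay below both controls, and the change of -0.11 did not pass (adjusted p = 0.897 in the quasi-binomial test across all events). Its skipping reads were 78.8 and 50.5 JPM in the controls and 110.4 and 139.8 after depletion. FLNA exon 40, of 123 bases, went from 1.00 to 0.907 ± 0.131 (SD, n = 2, adjusted p = 0.897 across all events), where 1 library decided the mean. CTTN exon 11 was at 0.584 and 0.902 in siCtrl input and at 0.694 and 0.791 in siFBL input. The means were 0.743 ± 0.225 and 0.742 ± 0.069 (SD, n = 2), and the control libraries lay far apart. The highest siFUBP1 library, at 0.573, was close to the lower of these controls. CNN2 exon 5 was at 0.949 in both controls and at 1.00 and 0.866 after depletion. MTSS2 exon 9 was at 0.977 and 0.892 against 1.00 and 0.991, and CTTN exon 17, of 72 bases, at 1.00 in both controls against 0.929 and 0.972. Neither was called.

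**Figure D3:**
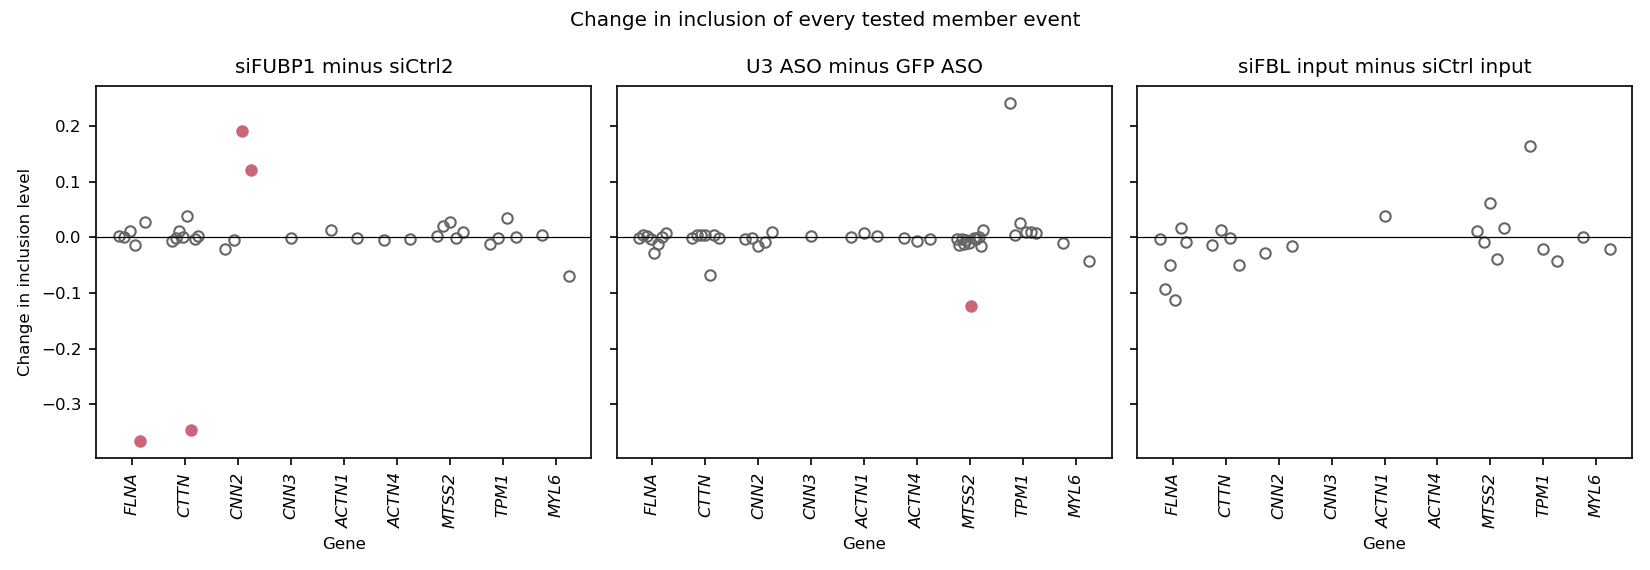
Change in inclusion level (depletion minus control) of every tested event of the 9 genes in each comparison, 1 circle per event, filled where called. FLNA (-0.37), CTTN (-0.35) and CNN2 (0.12 and 0.19) are filled after siFUBP1 and MTSS2 (-0.12) under U3 ASO, and the open TPM1 circle at 0.24 under U3 ASO rests on 19.3 reads per library.

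The control level of the FLNA exon was alike in the 3 sets, with means of 0.709, 0.712 and 0.745. The CTTN exon had 0.896, 0.889 and 0.743, and the MYL6 exon had 0.088, 0.159 and 0.021. The last MYL6 value rests on 1 and 2 inclusion reads. These sets differ in siRNA or ASO, time, RNA selection and depth, so differences between their controls cannot be assigned to 1 of these.

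The exons of other genes nearest to these 2 exons were found by the root mean squared difference of their changes over the 3 comparisons, among 1602 events with at least 50 reads per library. For FLNA exon 30 the nearest was CTTN exon 11 itself, at 0.070, followed by a 108-base exon of FOSL1 at 0.088 and a 174-base exon of CRIM1 at 0.093. The list was chosen by the falls of both the FLNA and the CTTN exon after siFUBP1, so their nearness follows in part from the choice. After siFBL they changed by -0.113 and -0.00041. The FOSL1 exon changed by -0.33, -0.18 and -0.12 after siFUBP1, U3 ASO and siFBL. For CTTN exon 11 the nearest was a 129-base exon of MIA2 at 0.038, with changes of -0.34, -0.13 and 0.03, then a 41-base exon of ZFAND3 at 0.067 and FLNA exon 30.

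Junction reads at the most-read event of a gene, in JPM, served as a measure of its level. Junction reads of 1 event are no count over the whole gene, and in bulk libraries fewer cells that express a gene and less RNA per cell cannot be told apart. After siFUBP1 the groups did not overlap at 5 of 9 members, 4 higher and 1 lower, against 23.3% of 6266 genes. A limma fit over all genes, added after the data were seen, called 3 of the 9, all higher, against 9.48%.

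FLNA had the largest difference of the 9. Its level was 102.5, 126.5 and 105.1 JPM in siCtrl2 and 194.0, 253.9 and 226.5 in siFUBP1, a log2 change of 1.01 ± 0.14 (SE). CNN2 went from 184.6 ± 36.4 to 249.3 ± 13.4 and ACTN1 from 168.2 ± 24.0 to 225.5 ± 13.4 (SD, n = 3), and both were called. The CNN2 level was read at exon 5 itself, whose inclusion change was among those the list was chosen by. The CNN2 reads summed over all events hold the exon 5 reads too. Neither CNN2 level is therefore separate from that inclusion change. CTTN was at 170.2, 156.7 and 155.1 against 151.9, 132.0 and 117.0, lower without overlap but not called. With the reads of all its events summed, CTTN was at 101.7% of the control mean and the groups overlapped, so that difference rests on 1 event. That event is exon 10 counted with exon 11 as the next exon. Its inclusion reads include the junction to exon 11, so it is not separate from the change at exon 11. MYL6 was at 329.7 ± 19.2 and 384.8 ± 36.3, ACTN4 at 233.8 ± 23.8 and 187.6 ± 24.7 (SD, n = 3), and MTSS2 at 229.4 and 229.3. With all events summed, MYL6 overlapped between the groups and ACTN4 was lower without overlap, while FLNA, CNN2 and ACTN1 were still called higher.

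Under U3 ASO the groups did not overlap at 5 of 9 members, all higher, against 44% of 8456 genes, and limma called 6 of 9, 5 higher and 1 lower, against 40.2%. Both shares lie above the background, and no test of the 9 as a set was run. Over all genes 30.9% were called higher and 9.21% lower. The median log2 change was 0.39 over the members and 0.26 over all genes. CTTN was at 66.4, 69.2 and 62.9 JPM in GFP ASO and 109.8, 114.7 and 121.3 in U3 ASO, a log2 change of 0.80 ± 0.10 (SE). FLNA changed by 0.71, MTSS2 by 0.64, TPM1 by 0.55 and CNN2 by 0.39 on the log2 scale. MYL6 was called lower at -0.22, with overlap between the groups. CNN3, ACTN1 and ACTN4 were not called. With all events summed, MYL6 was at -0.15 and no longer called, and ACTN1 was called higher at 0.23 on the log2 scale.

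After siFBL the groups did not overlap at 2 of 7 members listed, against 43.1% of 3098 genes, and limma called 1 of 7 against 2.84%. The called member was MTSS2, at 1137 and 1119 JPM in siCtrl input and 798.9 and 756.8 in siFBL input, a log2 change of -0.54 ± 0.14 (SE, limma adjusted p = 0.0319). An exact permutation test of 2 against 2 libraries cannot go below 0.333, which is the value MTSS2 has. CNN2 was at 211.0 and 376.6 against 143.0 and 202.6 (limma adjusted p = 0.287). FLNA was at 417.6 and 341.5 against 358.5 and 322.2 (limma adjusted p = 0.825). With all events summed, FLNA turned to the other direction, at 1508 and 1334 JPM against 1540 and 1533 (limma adjusted p = 0.735), and 4 members did not overlap in place of 2. MTSS2 was lower in the summed reads too (limma adjusted p = 0.00119).

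**Figure D4:**
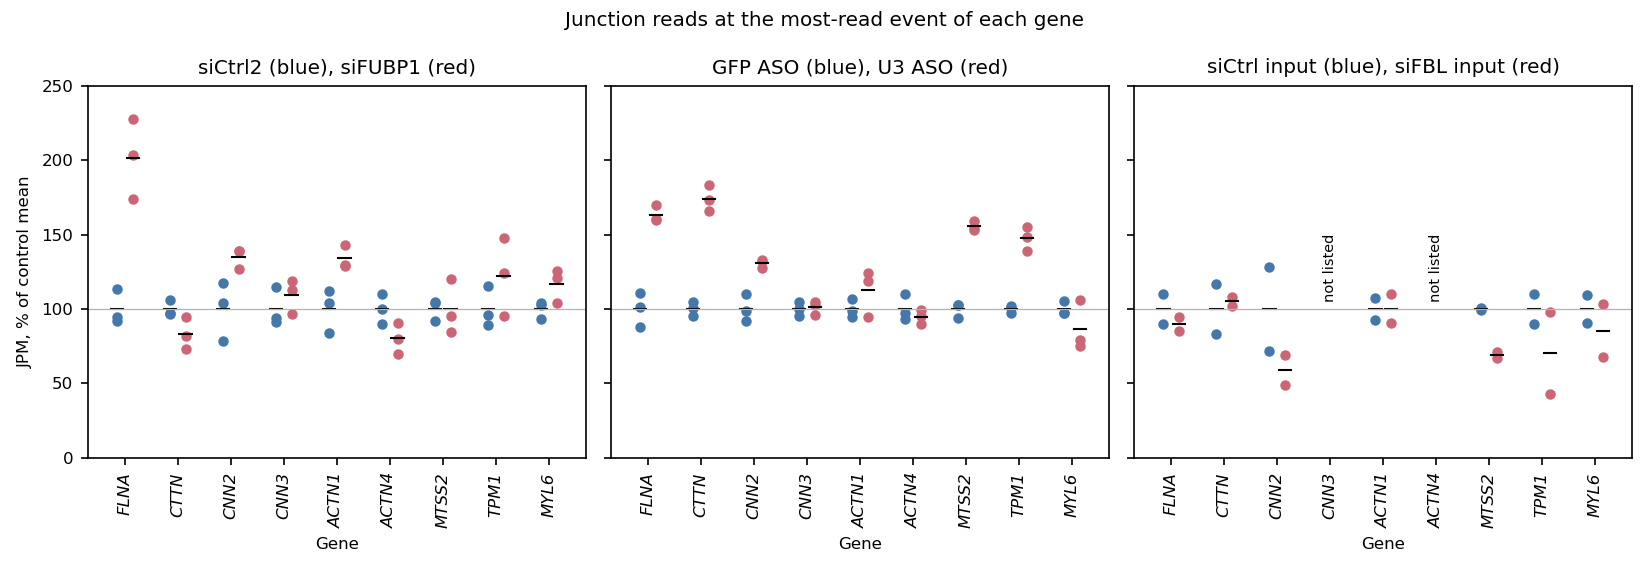
Junction reads (JPM) at the most-read event of each gene, as a percentage of the control mean, with controls in blue, depletions in red and a line at each mean. FLNA has a mean of 202% after siFUBP1, CTTN is highest under U3 ASO at 174%, and MTSS2 is at 69.0% after siFBL.

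FUBP1 RIP values were above 0 for 3 of the 9 transcripts, against 52.3% of genes with a mean normalized count of at least 50. Enrichment, the log2 ratio of RIP to input fitted by the authors, was above 0 in siCtrl cells for CTTN at 1.22 ± 0.06, CNN3 at 0.88 ± 0.05 and TPM1 at 0.55 ± 0.08 (SE, from 2 RIP and 2 input libraries). It was below 0 for FLNA at -3.05 ± 0.06, MYL6 at -2.32 ± 0.14, CNN2 at -2.09 ± 0.10, ACTN1 at -1.81 ± 0.07, ACTN4 at -1.79 ± 0.06 and MTSS2 at -1.75 ± 0.05. CTTN lay at the 67.4 percentile of 11581 genes with a mean normalized count of at least 50, and FLNA at the 6.34 percentile. CNN3 and TPM1 lay at the 61.6 and 56.1 percentiles, so a value above 0 does not set them apart from most genes. FLNA and CTTN, the members with the largest fall in inclusion after siFUBP1, thus had RIP values on either side of 0. In this order ACTN1, ACTN4 and MTSS2 did not differ beyond their SE.

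After siFBL the enrichment of 6 of the 9 moved by more than 2 combined SE (the root of the summed squares of both SE), 5 up and 1 down, against 16.3% of 17651 genes with a value in both. Among genes with a mean normalized count of at least 50 that share was 21.7%, and 9.64% moved up. The members had mean normalized counts of 1929 or more, and neither background was matched for count. FLNA went to -2.01 ± 0.04 (SE), a difference of 1.04 with a combined SE of 0.07, which lay at the 97.7 percentile of those genes. MYL6 differed by 0.56, ACTN4 by 0.47, ACTN1 by 0.34 and MTSS2 by 0.34. CNN3 went from 0.88 to 0.66, a difference of -0.22 with a combined SE of 0.07. CTTN at 1.22 and 1.19, TPM1 at 0.55 and 0.62 and CNN2 at -2.09 and -1.88 stayed within 2 combined SE. The 5 transcripts that moved up were all below 0 in both conditions, and the median difference over those 11581 genes was -0.0014.

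**Figure D5:**
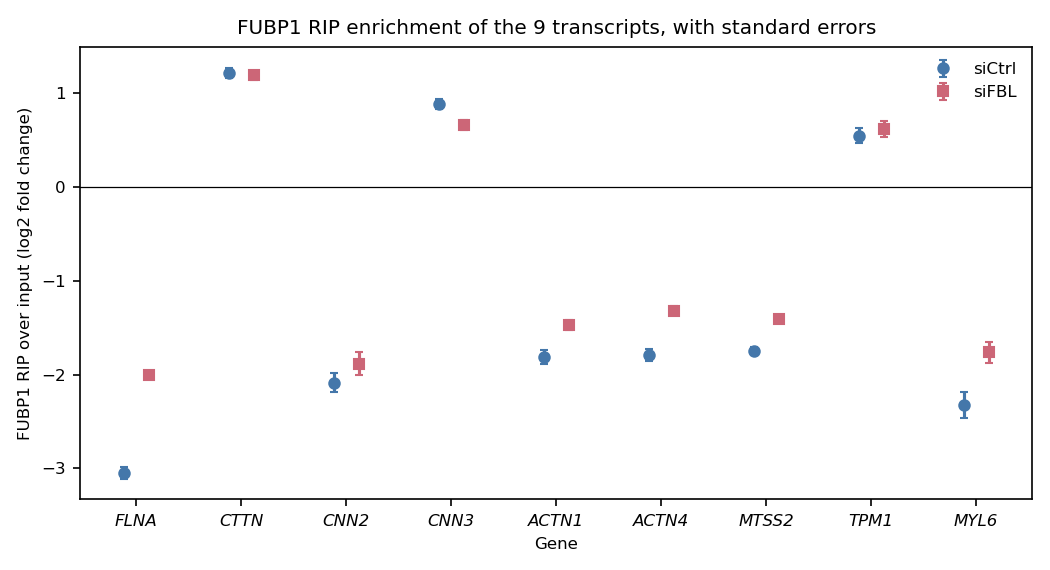
FUBP1 RIP over input (log2 fold change, with SE) of the 9 transcripts in siCtrl (blue circles) and siFBL cells (red squares). CTTN, CNN3 and TPM1 lie above 0 in both, and FLNA has the lowest value, -3.05, and the largest difference, 1.04.

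A list of 80 other genes of the actin cytoskeleton shows how far the members stand for the rest. After siFUBP1 there were 150 tested events at 54 of them, of which 0 were called in the quasi-binomial test, with 5 at an unadjusted p under 0.05 and a median change of 5.4e-05. Over all genes 0.154% of events were called and 578 of 16213 had such a p, so the list lay near the background. Under U3 ASO, 265 events of 57 genes were tested, 1 was called and 13 had an unadjusted p under 0.05, against 0.189% called and 989 of 30110 over all genes. It was a 60-base exon of SPTAN1, the alpha-II spectrin of the membrane skeleton, at chr9:128592983-128593042, which went from 0.438 ± 0.011 to 0.573 ± 0.028 (SD, n = 3, adjusted p = 0.0590 over all events). After siFBL, 64 events of 32 genes were tested and 0 were called, with 0 at an unadjusted p under 0.05. Of 73 list genes with a mean normalized count of at least 50 in the RIP table, 31 were above 0 in siCtrl, against 52.3% of all genes with such a count. After siFBL 18 of the 73 moved up and 9 down by more than 2 combined SE, against 9.64% up and 21.7% in either direction over those genes. For levels in JPM after siFUBP1, limma called 9 of 54 list genes higher and 4 lower, against 4.48% and 5% of all genes. Under U3 ASO it called 34 of 57 higher and 1 lower, against 30.9% and 9.21%. In the siFBL comparison it called 0 of 32 higher and 1 lower, against 0.678% and 2.16%.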

How the data were processed

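Per the labels and the study's methods, libraries were made with a stranded total RNA kit, trimmed with Cutadapt and aligned to hg38 with HISAT2 by the authors; no version is given in the sources used here. Skipped exons were counted by the authors with rMATS from junction reads. The deposited lists hold 1 whole number per library, and their positions carry no replicate number. The RIP table holds the authors' DESeq2 output: a deposited mean normalized count, treated as a score, and a deposited log2 fold change of RIP over input with its SE. The methods name HTSeq and the submitters' processing notes featureCounts for the gene counts. Columns with the authors' p-values, false discovery rates and inclusion levels were not used.

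Events that averaged 10 or more junction reads a library, with reads in both groups, were tested in R 4.3.3 by a quasi-binomial F test, whose dispersion was shrunken with limma 3.58.1 towards a trend on the rank of information, and Benjamini-Hochberg adjustment over the table. The lists are not a count table, so no count model was used. Scripts were tested on simulated data. Named events were every called member event and, per gene, the exon with the most reads and the one with the largest change at 50 or more reads. Up to 5 called exons of the actin list and the 3 nearest exons by change were named likewise. Members and lists were chosen with earlier results of these data known. Levels were fitted as log2(JPM + 0.5). No molecular identifiers are mentioned, so errors cover counting and library spread only. Exons were annotated from GENCODE release 44. Alternatives were other read minimums, limma on log2 odds, a prior without trend, other scalings and leaving out each library.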

Additional observations from a re-analysis of the deposited data

How the results depend on the processing

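No paired analysis was possible because the positions in the lists carry no replicate number. The 4 member events called after siFUBP1 and the 1 under U3 ASO were also called with a minimum of 20 or of 1 junction read, with a dispersion prior without a trend, and without any 1 library (4 to 4 and 1 to 1). The list was chosen by these inclusion changes in the same reads, so the repeated calls are no separate support for them. Of the 4 events, the 2 of CNN2 share their skipping reads. With limma on the log2 odds, with or without a variance trend, 0 and 0 were called, and the cause was not tested. Over all genes the main test called 25 events after siFUBP1 and 57 under U3 ASO. Limma called 8 and 0 without a trend and 6 and 0 with it, and leaving out a library left 10 to 20 and 30 to 48. After siFBL the count was 0 in all these settings. The 6 members with a change of RIP enrichment came to 6 with a mean count of at least 50 and after subtracting the median difference, and to 5 over 3 combined SE. Member levels without overlap after siFBL numbered 2, and 4 when all events of a gene were summed, and limma called 1. After siFUBP1 they numbered 5, and 4 with all events summed, and limma called 3. Under U3 ASO they numbered 5, and 6 with all events summed, and limma called 6. Of 316 recomputed changes in inclusion of named events, 314 moved by less than 1 SD and 0 of the called ones reversed. The input table had 2 libraries a group and the fewest junction reads.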
